A study of Mus musculus with 24 samples.

Results

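The comparison concerned accessible chromatin in Cux2 and Tle4 neurons of the mouse cortex at postnatal day 3 (P3), measured by ATAC-seq, in which a transposase cuts and tags open DNA. Its members were the peaks of the deposited P3 lists of the Cux2 and Tle4 groups, on chromosomes 1 to 19 and X. There were 51735 such peaks, 29298 from Cux2 and 22437 from Tle4 neurons, of 292908 peaks on these chromosomes in the 12 lists of the series (292994 with all chromosomes). Besides P3, each class had 1 list at E18.5 (embryonic) and at P1, P7, P21 and P48. These other lists served for the comparisons over age. A peak was called Cux2-only or Tle4-only (together, class-only) if it had no overlap of at least 1 bp with any peak of the other P3 list, and shared otherwise. All mice were C57BL/6, and 4-hydroxytamoxifen (4-OHT) was given to their pregnant mothers at 1 mg per 10 g body weight. Cux2 neurons came from Cux2-CreERT2:Ai14 and Tle4 neurons from Tle4-2A-CreERT2:Ai14 animals, where the Cre is driven by the Cux2 or the Tle4 gene and switches on the red protein of the Ai14 reporter. Labelled cells of somatosensory and motor cortex were sorted, so a group held the cells in which that gene drove Cre at the time of the drug. The study's methods cite reports that the Cux2 line also marks some interneurons, and its authors judged the effect on their own results to be minimal. According to the same methods, each library pooled several animals. Each group had 2 libraries merged into 1 deposited list, so no spread between replicates could be computed at P3, and the read depth behind the lists is unknown.

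Cux2 marks upper-layer neurons, many of which are callosal projection neurons (CPNs) that send axons to the opposite hemisphere. Tle4 marks corticothalamic projection neurons (CThPNs) of the deepest layer, which project to the thalamus. In young neurons, open chromatin falls on promoters, which most cells share, and on distal elements such as enhancers, which differ more between cell types and are bound by transcription factors through short sequence motifs.

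Below are 8 windows of 300 bp around peak summits (NCBIM37/mm9, plus strand), shown because they are class-only sites that kept to their class at neighbouring ages. Capitals mark letters that match any of 15 motifs searched on both strands. The 3 strongest Cux2-only and the 3 strongest Tle4-only peaks were taken among peaks that were also in the same class's P1 and P7 lists and in none of the E18.5, P1 and P7 lists of the other class. The last windows lay near Ptn and Fezf2, which were chosen after their counts were seen.
Cux2-only, chr10:44804930-44805229, intron of Prep: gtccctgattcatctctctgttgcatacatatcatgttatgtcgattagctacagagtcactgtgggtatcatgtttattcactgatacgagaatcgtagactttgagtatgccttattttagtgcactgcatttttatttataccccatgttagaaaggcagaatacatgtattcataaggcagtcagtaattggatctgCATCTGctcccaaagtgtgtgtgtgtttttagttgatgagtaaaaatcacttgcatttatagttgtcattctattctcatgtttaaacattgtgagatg
Cux2-only, chr13:64628339-64628638, intergenic, nearest gene Cdk20: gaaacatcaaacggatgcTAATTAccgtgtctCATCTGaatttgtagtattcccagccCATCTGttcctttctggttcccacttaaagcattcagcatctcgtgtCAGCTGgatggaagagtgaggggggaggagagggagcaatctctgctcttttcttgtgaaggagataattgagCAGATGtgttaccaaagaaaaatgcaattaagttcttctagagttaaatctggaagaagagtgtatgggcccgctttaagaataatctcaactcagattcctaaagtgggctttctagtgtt
Cux2-only, chr12:31383194-31383493, intergenic: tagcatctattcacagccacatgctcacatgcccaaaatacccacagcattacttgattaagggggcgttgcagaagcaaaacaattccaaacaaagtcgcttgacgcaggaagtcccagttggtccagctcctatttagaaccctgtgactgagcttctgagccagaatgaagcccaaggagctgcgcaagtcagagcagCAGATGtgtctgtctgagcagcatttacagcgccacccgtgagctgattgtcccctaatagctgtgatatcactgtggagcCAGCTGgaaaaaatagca
Tle4-only, chr12:33688176-33688475, intergenic, nearest gene Sypl: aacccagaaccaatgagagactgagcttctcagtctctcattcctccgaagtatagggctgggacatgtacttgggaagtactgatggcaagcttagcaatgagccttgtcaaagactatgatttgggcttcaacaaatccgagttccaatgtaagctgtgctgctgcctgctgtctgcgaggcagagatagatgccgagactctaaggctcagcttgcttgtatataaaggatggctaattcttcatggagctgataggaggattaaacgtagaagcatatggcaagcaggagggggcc
Tle4-only, chr4:65771909-65772208, intron of Astn2: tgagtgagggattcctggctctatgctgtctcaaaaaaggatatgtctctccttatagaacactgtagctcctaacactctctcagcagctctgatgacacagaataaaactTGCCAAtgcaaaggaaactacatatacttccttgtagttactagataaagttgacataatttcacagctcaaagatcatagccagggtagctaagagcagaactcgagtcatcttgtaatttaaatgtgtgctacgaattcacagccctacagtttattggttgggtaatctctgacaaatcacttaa
Tle4-only, chr2:12960511-12960810, intergenic, nearest gene C1ql3: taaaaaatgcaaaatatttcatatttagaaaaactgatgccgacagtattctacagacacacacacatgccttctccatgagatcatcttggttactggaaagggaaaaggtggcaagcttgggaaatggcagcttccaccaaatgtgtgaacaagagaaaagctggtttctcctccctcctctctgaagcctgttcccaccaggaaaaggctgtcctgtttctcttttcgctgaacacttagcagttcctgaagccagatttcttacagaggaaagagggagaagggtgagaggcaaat
Cux2-only, chr6:36793181-36793480, intergenic, nearest gene Ptn: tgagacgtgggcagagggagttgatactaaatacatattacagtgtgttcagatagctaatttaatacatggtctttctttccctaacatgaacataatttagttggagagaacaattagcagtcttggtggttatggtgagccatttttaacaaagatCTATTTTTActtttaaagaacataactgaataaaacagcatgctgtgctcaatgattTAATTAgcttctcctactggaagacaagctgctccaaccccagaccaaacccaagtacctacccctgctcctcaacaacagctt
Tle4-only, chr14:13269400-13269699, intron of Cadps, nearest start Fezf2: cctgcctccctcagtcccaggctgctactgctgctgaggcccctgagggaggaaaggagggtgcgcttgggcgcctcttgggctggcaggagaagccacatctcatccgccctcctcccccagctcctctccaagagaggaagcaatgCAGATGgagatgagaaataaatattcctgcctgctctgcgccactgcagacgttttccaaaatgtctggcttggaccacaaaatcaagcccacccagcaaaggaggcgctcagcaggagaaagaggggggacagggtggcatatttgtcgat
All 3 leading Cux2-only windows held the E-box CAGATG of the NEUROD type, the windows near Cdk20 and on chromosome 12 also held the E-box CAGCTG, and the window near Cdk20 held the homeobox core TAATTA. The NEUROD type of E-box was common in both classes. Over the distal peaks, 32.6% of Cux2-only and 31.5% of Tle4-only windows held it, so its presence does not mark the class. Of the 3 leading Tle4-only windows, the window in Astn2 held TTGGCA, the core of the NFI site, read here from the minus strand, and the other windows held no match. The window near Ptn held TAATTA and, on the minus strand, the MEF2 word TAAAAATAG, and the window near Fezf2 held CAGATG.

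These leading peaks were not the strongest of their lists. Strength here is the −log10 p that MACS2, the peak caller, gave at the summit. The Cux2-only peak in Prep had a −log10 p of 79.0 at P3 and ranked 954 in its list, and it had 68.4 at E18.5, 53.3 at P1 and 59.8 at P7. The Cux2-only peak near Cdk20 had 75.2 at P3, 78.0 at E18.5, 60.6 at P1 and 55.9 at P7. Neither had a peak in any Tle4 list or in the later Cux2 lists. The Tle4-only peak near Sypl had 100.7 at P3 and ranked 908, with 74.0 at E18.5, 87.5 at P1, 84.0 at P7 and 32.4 at P21. The Tle4-only peak in Astn2, a gene for a protein of neuronal migration, had 90.9 at P3, 51.3 at E18.5, 69.2 at P1, 74.99 at P7 and 23.2 at P21. No Cux2 list held a peak at either Tle4-only site.

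Of the Cux2 peaks, 14943 had no partner in the Tle4 list, 51% (Wilson 95% interval 50.4 to 51.6). Of the Tle4 peaks, 8238 had no partner in the Cux2 list, 36.7% (36.1 to 37.3). These intervals cover the counting of peaks only and not the spread between animals. The remaining 14355 Cux2 and 14199 Tle4 peaks were shared, and the lists merged into 37362 regions, of which 14181 held peaks of both classes. Cux2-only peaks were thus 1.81 times as many as Tle4-only peaks.

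That ratio depended on the length of the lists. With both lists limited to their 22437 strongest peaks, 9547 Cux2 and 9630 Tle4 peaks had no partner, a ratio of 0.991. Nearly all shared peaks formed single pairs (13992), so lists of equal length must give nearly equal class-only counts. This ratio therefore says nothing about the classes. The cut also left some Tle4 peaks without a partner that the full Cux2 list holds. With both lists ended at the same −log10 p, 4341 Cux2-only and 12220 Tle4-only peaks remained and the ratio turned to 0.355. The Cux2 list reached down to a −log10 p of 13.8 and the Tle4 list only to 22.0, and 10602 Cux2-only peaks (70.9%) lay below the end of the Tle4 list. Among the 10000 strongest peaks of each list, 2015 Cux2 peaks (20.2%) and 2057 Tle4 peaks (20.6%) had no partner anywhere in the whole other list. At this rank the counts of both classes were nearly equal. An equal rank is not an equal −log10 p, since the median was 36.0 in the Tle4 and 21.9 in the Cux2 list.

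Peak width mattered less than list length. Tle4 peaks were wider, with a median of 809 bp (quartiles 618 and 1034) against 600 bp (433 and 793) in the Cux2 list, so that the shorter Tle4 list covered 18.99 Mb and the Cux2 list 18.6 Mb. Replacing every peak with 500 bp around its summit gave 15227 Cux2-only and 8394 Tle4-only peaks. Counting peaks within 1 kb of each other as shared gave 14651 and 8029. Few class-only peaks were near misses, since 292 Cux2-only (1.95%) and 209 Tle4-only peaks (2.54%) had a peak of the other list within 1 kb, and the median gap to it was 34.2 and 29.1 kb.

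The share without a partner followed strength. With each list divided into 10 bins of about equal number, 2.80% of peaks had no partner in the strongest bin of the Cux2 list, and 80.3% in the weakest. In the Tle4 list the same shares were 2.01% and 57.6%. By width, the share fell from 78.3% in the narrowest to 27.9% in the widest bin of the Cux2 list, but only from 36.9% to 29.8% in the Tle4 list. Within each of 4 bins of strength, narrower Cux2 peaks were more often class-only than wider ones, with 16.5% against 11.4% in the strongest and 83.6% against 72.9% in the weakest bin. In the Tle4 list narrower and wider peaks stood closer, with 10.6% and 11.03% in the strongest and 53.4% and 56.6% in the weakest bin.

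**Figure D1:**
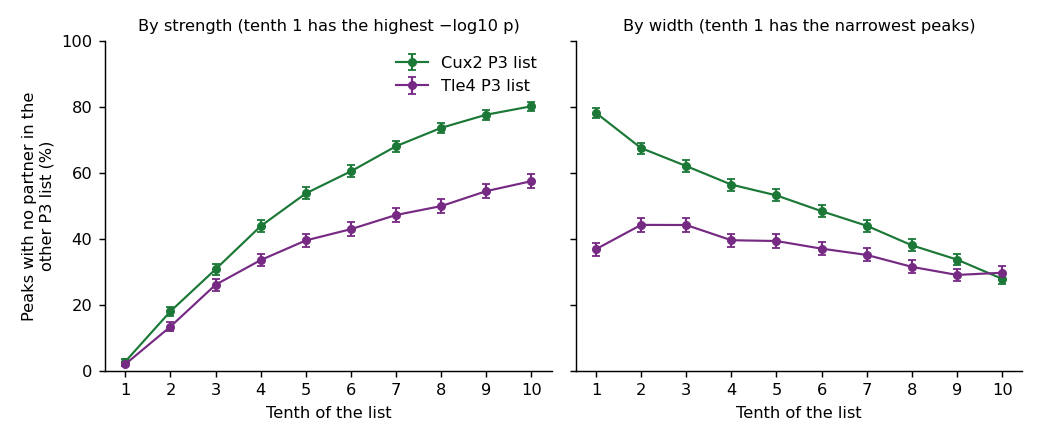
Share of P3 peaks (%) with no partner in the other P3 list, in 10 bins of strength (left, bin 1 has the highest −log10 p) and of width (right, bin 1 has the narrowest peaks); green is the Cux2 and purple the Tle4 list, and bars are Wilson 95% intervals. The share rises from 2.80% to 80.3% with falling strength in the Cux2 list and from 2.01% to 57.6% in the Tle4 list, and it falls with width mainly in the Cux2 list.

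Where peaks of the lists met, they met at the same place. In 13992 pairs a Cux2 peak overlapped exactly 1 Tle4 peak and the reverse, and the median distance between the summits was 23 bp, with 94.1% of pairs within 150 bp. The Tle4 peak was the wider of the pair in 74.8% of pairs, by a median of 106 bp, and had the higher −log10 p in 85.3%. The fold enrichment over the local background that MACS2 reports was not higher in Tle4, with a median of 10.3 against 11.05 in Cux2. Over the pairs the −log10 p values had a Spearman rho of 0.706, given as a description because the pairs are regions of the same libraries and not replicates.

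Class-only peaks lay away from promoters. Of the Cux2-only peaks, 1878 (12.6%, 12.0 to 13.1) were within 1 kb of an annotated transcription start site (TSS), against 681 (8.27%, 7.69 to 8.88) of the Tle4-only peaks, while the shares among shared peaks were 55.8% in the Cux2 and 55.7% in the Tle4 list. Intergenic positions held 47.2% of Cux2-only and 54.5% of Tle4-only peaks against 25.9% of shared peaks of either list. Introns held 38.1% of Cux2-only and 35.6% of Tle4-only peaks against 17.1% of shared peaks. The median distance from the summit to a TSS was 22.0 kb for Cux2-only and 33.0 kb for Tle4-only peaks, but 0.342 and 0.300 kb for shared Cux2 and Tle4 peaks. The gap between the class-only sets closed at equal list length, where the promoter shares were 11.6% for Cux2-only and 11.5% for Tle4-only peaks. Among the 10000 strongest peaks of each list set against the whole other list, they were 7.89% and 4.86%.

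**Figure D2:**
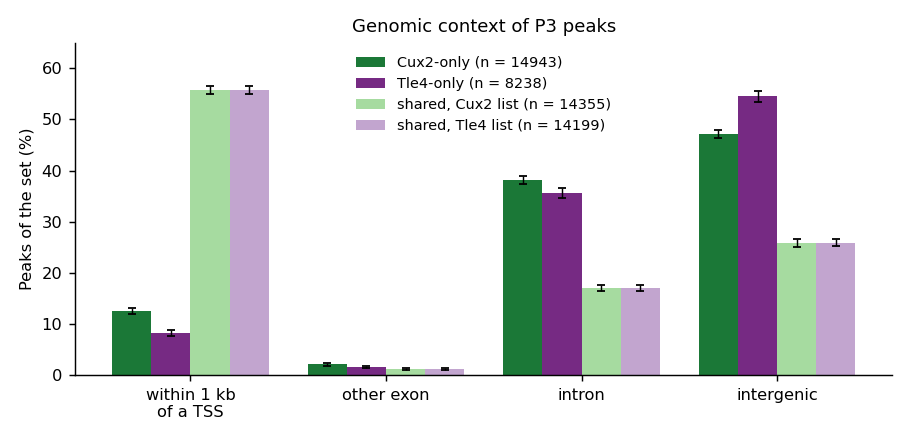
Genomic context of P3 peaks: bars give the share (%) of each set that lies within 1 kb of a TSS, in another exon, in an intron or between genes, with Wilson 95% intervals. Shared peaks (pale) stand at 55.8% and 55.7% near a TSS, and Cux2-only (green) and Tle4-only peaks (purple) at 12.6% and 8.27%.

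The 6 ages allowed a test with age as the unit, since Cux2 and Tle4 lists exist at each. Class-only peaks were defined at each age as at P3, and the difference Cux2-only minus Tle4-only was tested by an exact two-sided sign-flip permutation test, which with 6 ages cannot go below p = 0.03125. The promoter share was higher in Cux2-only peaks at 5 of 6 ages, by 5.91 percentage points on average (SD 10.2), with the reverse at P21 (12.1% against 25.8%), and the exact permutation p was 0.25. The mean difference turned to −5.12 points at equal list length. Cux2-only peaks were narrower at 5 of 6 ages, with a mean difference of −134.6 bp (SD 91.1, exact permutation p = 0.0625). The difference was not particular to class-only peaks. The whole Cux2 list had the smaller median width at each age, such as 600 against 809 bp at P3 and 527.5 against 589 bp at P21. Shared P3 peaks had medians of 684 bp in the Cux2 and 837 bp in the Tle4 list. The ages are not fully separate evidence, because 84.7% of P3 Cux2-only and 84.6% of P3 Tle4-only peaks also appeared in at least 1 other list of their own class.

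Class-only peaks of P3 were mostly found again in lists of their own class, which the definition at P3 did not use. Of the Cux2-only peaks, the Cux2 list of another age overlapped 57.8% at E18.5, 45.0% at P1, 52.4% at P7, 24.5% at P21 and 30.1% at P48. In the Tle4 lists the shares were 8.12%, 4.56%, 5.80%, 2.02% and 4.99% at the same ages. The Cux2 share was the higher at 5 of 5 ages, by 36.9 percentage points on average (SD 12.4), with an exact two-sided permutation p of 0.0625, the smallest that 5 ages allow. At equal list length the mean difference was 20.8 points (SD 18.7, 5 of 5 ages, exact permutation p = 0.0625). Among the 10000 strongest peaks of each list it was also 20.8 points (SD 19.7), but at 4 of 5 ages (exact permutation p = 0.125), with 11.7% in the Cux2 and 14.3% in the Tle4 list at P48.

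Tle4-only peaks were found again in young Tle4 neurons and less so later. The Tle4 list overlapped 56.96% of them at E18.5, 68.3% at P1 and 42.6% at P7, against 20.9%, 6.58% and 15.7% in the Cux2 list. At P21 the order turned, with 6.31% in the Tle4 and 23.3% in the Cux2 list, and at P48 the shares were 13.6% and 28.1%. The mean difference was 18.6 points (SD 33.9, Tle4 higher at 3 of 5 ages, exact permutation p = 0.3125). At these late ages the Tle4 lists were short (6538 and 11836 peaks) beside the Cux2 lists (37426 and 45642), and with lists of equal length the Tle4 share was higher at 5 of 5 ages, by 29.4 points (exact permutation p = 0.0625).

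**Figure D3:**
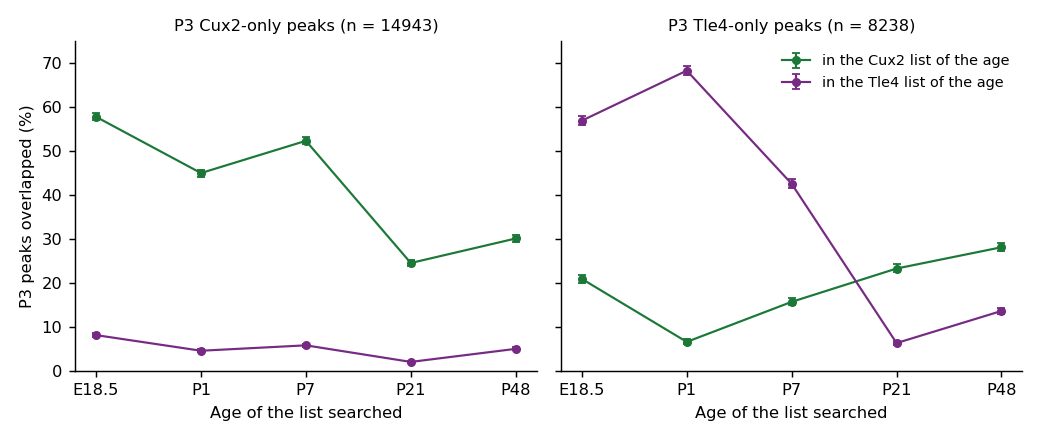
Share (%) of the P3 Cux2-only (left) and Tle4-only peaks (right) that overlapped a peak of the Cux2 (green) or Tle4 list (purple) of each other age; bars are Wilson 95% intervals. The Cux2-only peaks stand at 24.5% to 57.8% in Cux2 lists and at 2.02% to 8.12% in Tle4 lists, and the Tle4-only peaks change order between P7 and P21.

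A steady set of class-only sites ran from P1 to P7, and presence in the own class at E18.5 was not required. In all, 3193 Cux2-only peaks (21.4%) were also in the P1 and P7 Cux2 lists and in no Tle4 list from E18.5 to P7, and 1918 Tle4-only peaks (23.3%) met the mirrored conditions. Of these steady peaks, 11.3% (10.3 to 12.5) of the Cux2 and 3.49% (2.76 to 4.41) of the Tle4 set were within 1 kb of a TSS, and 59.7% of the Tle4 set was intergenic against 47.9% of the Cux2 set. A P21 or P48 list of the own class held 1437 of the steady Cux2 and 383 of the steady Tle4 peaks. In no other list of the series were 2204 Cux2-only peaks (14.7%) and 743 Tle4-only peaks (9.02%).

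Distal class-only peaks of the classes differed in the motifs around their summits. Over 13065 Cux2-only and 7557 Tle4-only peaks more than 1 kb from a TSS, the windows were searched for 15 words, and a match is a description of the letters and not of a bound factor. The words were CAGATG (E-box of NEUROD factors), CAGCTG (another E-box), AGGTGTGA (T-box), AACAATG (SOX), ATGCAAAT (POU octamer), TAATTA (homeobox), GTAAACA (FOX), TGAGTCA (AP-1), TGACGTCA (CRE), TAAAAATAG (MEF2), TTGGCA (NFI), TAGGTCA (ROR), GTTGCNATG (RFX), CAGGGGGC (CTCF core) and CCGGAAGT (ETS). No word contains another, though matches may share letters in a window. The median GC content of the windows was 42.7% for Cux2-only and 43.7% for Tle4-only peaks.

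The NFI word had the largest difference towards Tle4 neurons of the 15 words. TTGGCA was in 31.96% (30.9 to 33.0) of Tle4-only and 18.8% (18.1 to 19.5) of Cux2-only windows, against 20.4% and 20.6% of shared Cux2 and Tle4 windows and 22.4% of all 33256 distal P3 peaks. NFI proteins, among them Nfia, are transcription factors of cortical development that bind a palindrome of this word. The share was higher in Tle4-only peaks at 6 of 6 ages, and the differences lay between −13.2 and −14.9 percentage points (mean −13.8, SD 0.598). The mean difference was smaller at equal list length (−10.6, SD 2.51), among the 10000 strongest peaks (−10.5, SD 2.14) and at a common −log10 p (−11.6, SD 0.928). The sign was the same at 6 of 6 ages in each. The T-box word, bound by Tbr1 and its relatives, was at 1.24% in Tle4-only and 0.574% in Cux2-only windows, a difference of the same sign at 5 of 6 ages with an exact permutation p of 0.0625.

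Words of SOX, POU, homeobox and E-box factors were more frequent towards Cux2 neurons. CAGCTG was in 23.4% of Cux2-only and 13.8% of Tle4-only windows, TAATTA in 13.8% and 5.78%, ATGCAAAT in 6.13% and 2.73%, and AACAATG in 4.799% and 1.51%. The shared Cux2 windows stood between these values for each of the 4 words, at 16.2%, 7.37%, 4.44% and 3.04%. POU octamers are read by Pou3f2 and Pou3f3, which act in upper-layer neurons, and TAATTA by many homeobox proteins. The SOX word differed by 2.95 points on average (SD 0.724) and the POU word by 2.79 points (SD 0.519), with Cux2-only peaks higher at 6 of 6 ages. The homeobox difference was 8.01 points at P3 but 0.320 at P21 and 1.11 at P48. GTAAACA, the FOX word, was in 4.48% and 2.71% of windows, also higher in Cux2-only peaks at 6 of 6 ages.

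In all, 8 of the 15 words had the same sign at 6 of 6 ages, 7 towards Cux2 and 1, NFI, towards Tle4, and each then had the smallest exact permutation p of 0.03125. Adjusted over the 15 words by the Benjamini-Hochberg method this p was 0.0586, so that 0 words passed 0.05 after adjustment. The CRE and ETS words, 2 of the 8, were in under 1% of windows and lost the smallest p at equal list length, with exact permutation p of 0.656 and 0.1875. The CAGCTG and homeobox words lost it there too, with exact permutation p of 0.0625 and 0.09375. Each was then higher in Cux2-only peaks at 5 of 6 ages. CAGATG was at 32.6% in Cux2-only and 31.5% in Tle4-only windows, and its difference changed sign among the ages (exact permutation p = 0.125). The CTCF core was at 1.71% in Cux2-only, 0.490% in Tle4-only and 2.54% in shared Cux2 windows, and among the 10000 strongest peaks of each list at 0.539% and 0.102% in the class-only sets.

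For the NFI, homeobox and POU words, the P3 shares kept their order at equal list length and among strong peaks. At equal list length TTGGCA was in 18.8% of Cux2-only and 31.3% of Tle4-only windows at P3, and among the strong peaks in 18.8% and 33.4%. For TAATTA these shares were 14.2% and 5.73%, and 18.6% and 4.85% among the strong peaks. For ATGCAAAT they were 6.44% and 2.84%, and 8.08% and 2.71% among the strong peaks. Peaks found in no list but that of P3 kept the order too, with TTGGCA in 17.2% of 1998 Cux2-only and 28.9% of 688 Tle4-only windows. Steady peaks held ATGCAAAT in 8.09% of Cux2 and 2.43% of Tle4 windows.

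**Figure D4:**
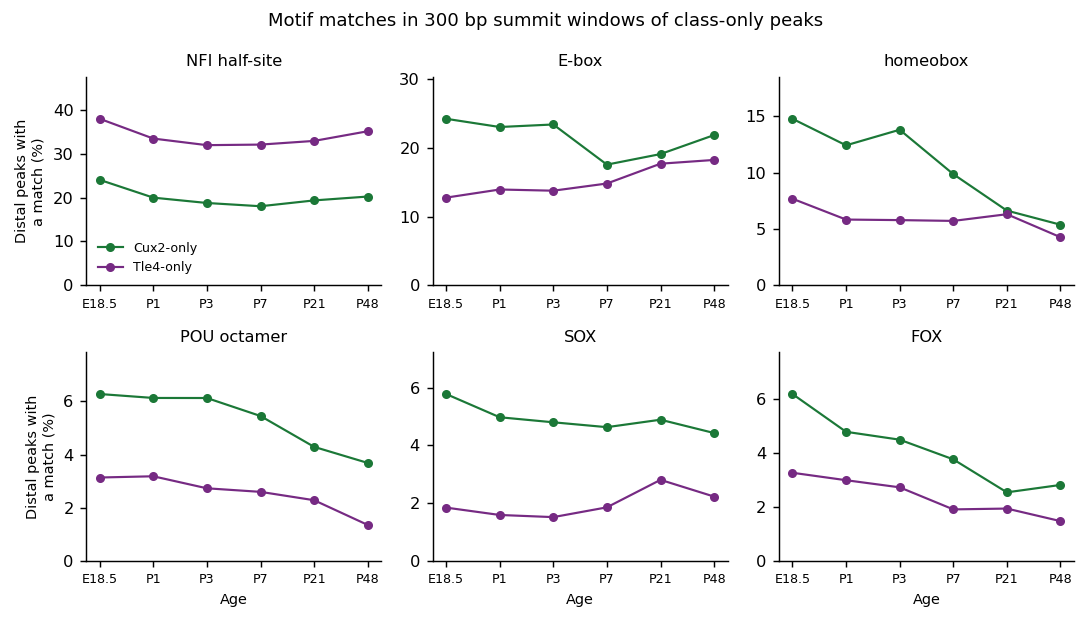
Share (%) of distal class-only peaks with a motif match in the 300 bp summit window, by age, for Cux2-only (green) and Tle4-only peaks (purple) of that age; 1 point stands for 1 pair of lists, so no error bar is drawn. The NFI word is higher in Tle4-only peaks at 6 of 6 ages, by 13.2 to 14.9 percentage points, and the other 5 words are higher in Cux2-only peaks at each age, with the homeobox lines 0.320 points apart at P21.

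Peaks were assigned to the protein-coding gene with the nearest TSS within 100 kb, which took in 10863 Cux2-only (72.7%) and 5211 Tle4-only peaks (63.3%). Of 13822 genes with a P3 peak, 587 leaned to Cux2 (4.25%), meaning at least 3 more Cux2-only than Tle4-only peaks, and 104 leaned to Tle4 (0.752%). At equal list length, which makes the class-only totals nearly equal, 201 genes leaned to Cux2 and 223 to Tle4. Other limits on the lists gave other numbers, listed with the processing below, and the reason for the unequal numbers was not tested. Leaning genes were long, with a median gene length of 115 kb for Cux2 and 82.6 kb for Tle4 against 24.3 kb for all genes with a peak. A peak near a gene does not show that it acts on that gene.

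Of the 12 genes that leaned most to Cux2, Cntnap2, a neurexin-like adhesion protein, had 14 Cux2-only and 1 Tle4-only peak, with a promoter peak in the Cux2 list alone. Pam, an enzyme that amidates peptides, had 11 and 1, and Tbc1d1, a regulator of Rab proteins, 9 and 1. The synaptic genes Dlg2 (13 and 3), Shank2 (8 and 1), Rims2 (7 and 0) and Psd3 (8 and 0) were among the 12, as were the phosphodiesterase Pde4d (17 and 8), the kinase Cdk14 (7 and 0), the proteoglycan Gpc5 (8 and 1), Sh3rf3 (8 and 1) and Fam190a (7 and 0). At equal list length Cntnap2 had 10 and 1, Tbc1d1 8 and 1 and Pam 5 and 1, but Pde4d had 8 and 8. These genes are up to 2241 kb long, and a link between gene length and these counts was not tested.

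Of the 12 genes that leaned most to Tle4, 7 were shorter than the 24.3 kb median of all genes with a peak. Drd1a, the dopamine D1 receptor, had 5 Tle4-only and 0 Cux2-only peaks, and Fezf2, a transcription factor that specifies deep-layer projection neurons, had 6 and 1. Rprm, a deep-layer marker, and Htr1f, a serotonin receptor, each had 4 and 0, and each had a P3 promoter peak in the Tle4 list alone, though over the 6 ages the Rprm promoter had a peak in 4 Cux2 lists and 1 Tle4 list. The others were Med10 (5 and 0) and, at 4 and 0 each, A730018C14Rik, Calm2, Cdr1, Fam81b, Rybp, Tnfrsf19 and Tnr, a matrix protein of the nervous system. Each of these 12 genes kept these counts at equal list length, but that limit shortens only the Cux2 list at P3. Tle4-only counts could then only stay or rise, and of the 12 genes only Fezf2 had a Cux2-only peak to lose. With only the strongest peaks of each list set against the whole other list, none of the 12 had more than 2 Tle4-only peaks. Drd1a and Rprm then had 1 each and Rybp had 0. Of the steady Tle4 peaks, Fezf2 had 4, Med10 had 3, and Htr1f and Tnr had 2 each.

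Genes of corticothalamic and layer 6 neurons had more Tle4-only than Cux2-only peaks, and the summed peaks of callosal and upper-layer genes had a Cux2-only share close to that of all genes. Over all 13822 genes with a peak, 5490 had more Cux2-only and 1904 more Tle4-only peaks. Of 19 corticothalamic genes with a peak, 13 had more Tle4-only and 5 more Cux2-only peaks, and against 0.752% and 4.25% of all genes, 4 leaned to Tle4 (Tle4, Fezf2, Rprm and Nfia) and 1 to Cux2 (Cdh18, 7 and 3). Their summed peaks were 25 Cux2-only and 43 Tle4-only, so that 36.8% were Cux2-only, against 67.6% over all genes with a peak. At equal list length the sums were 16 and 48, against 6863 and 6310 over all genes. The median difference, Cux2-only minus Tle4-only peaks, was −1 in the list and 0 over all genes. Tbr1, a regulator of corticothalamic identity, had 0 Cux2-only and 2 Tle4-only peaks, and peaks at its promoter were in 6 of 6 Tle4 and 2 of 6 Cux2 lists.

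Of 19 callosal or upper-layer genes with a peak, 10 had more Cux2-only and 4 more Tle4-only peaks, and 4 leaned to Cux2 (Cux2, Cux1, Limch1 and Ptn), against 4.25% of all genes, and 0 to Tle4. The median difference was 1, against 0 over all genes. The sums were 35 Cux2-only and 17 Tle4-only peaks, 67.3% Cux2-only, close to the 67.6% of all genes. At equal list length they were 28 and 21, against 6863 and 6310 over all genes. Cux1, a relative of Cux2, had 4 Cux2-only and 0 Tle4-only peaks, and Limch1 had 4 and 0 with a promoter peak in 5 of 6 Cux2 and 0 of 6 Tle4 lists. Of the POU genes, Pou3f2 had 2 and 0 and Pou3f3 0 and 1, and Pou3f2 had a promoter peak in 5 of 6 Cux2 and 2 of 6 Tle4 lists. Lpl, a lipase gene of the same list, had 1 and 3.

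The genes that define the lines each leaned to their own class. Cux2 (chr5:122308396-122500111, minus strand) had 4 Cux2-only and 1 Tle4-only peak, and no shared peak was assigned to it. The 4 Cux2-only peaks were weak, with −log10 p of 20.2, 19.4, 17.2 and 15.3, all below the end of the Tle4 list, so that this call rests on the length of the Cux2 list. The strongest of them, 1.71 kb from an annotated Cux2 start, was in 5 of 6 Cux2 and 0 of 6 Tle4 lists. Tle4 (chr19:14522562-14672473, minus strand) had 3 Tle4-only and 0 Cux2-only peaks beside 4 shared peaks, and its promoter was open in 6 of 6 lists of each class. The Tle4-only peaks had −log10 p of 55.7, 51.9 and 28.4 and lay 47.1, 31.6 and 98.3 kb from the nearest annotated Tle4 start, beyond the far end of the gene.

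Ptn and Fezf2 had the most steady peaks of their own class in the callosal and the corticothalamic list, 3 and 4. Ptn (chr6:36665663-36761361, minus strand), a secreted growth factor, had 3 Cux2-only and 0 Tle4-only peaks, and the 3 peaks were each in 6 of 6 Cux2 lists. The peak at the Ptn promoter had a −log10 p of 16.4 at E18.5, 20.7 at P1, 21.1 at P3, 18.4 at P7, 28.2 at P21 and 28.3 at P48 and was in no Tle4 list. Such values are not compared between ages, since depth is unknown. The intronic peak, 32.9 kb from a Ptn start, had 54.1, 39.4, 39.4, 30.0, 27.2 and 29.1 at the same ages and was in the Tle4 lists of P21 (23.7) and P48 (25.6).

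Fezf2 (chr14:13174406-13178379, minus strand) had its 6 Tle4-only peaks between 5.52 and 91.2 kb from its start. Those at 33.3, 82.4 and 91.2 kb lay inside Cadps, and the peak at 82.4 kb was within 1 kb of an annotated TSS other than that of Fezf2. The strongest, in an intron of the neighbouring gene Cadps, had a −log10 p of 34.5 at E18.5, 40.4 at P1, 48.1 at P3, 37.3 at P7 and 28.8 at P48 in Tle4 neurons, and of the Cux2 lists those of P21 (14.3) and P48 (25.6) held it. The peak 33.3 kb from the start was in 5 of 6 Tle4 and 0 of 6 Cux2 lists. Within 300 kb of the start there were 11 Tle4-only and 6 Cux2-only peaks, and the Cux2-only peak assigned to Fezf2 had a −log10 p of 19.1 and was in 4 of 6 Cux2 lists. No peak of either P3 list lay at the Fezf2 promoter.

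**Figure D5:**
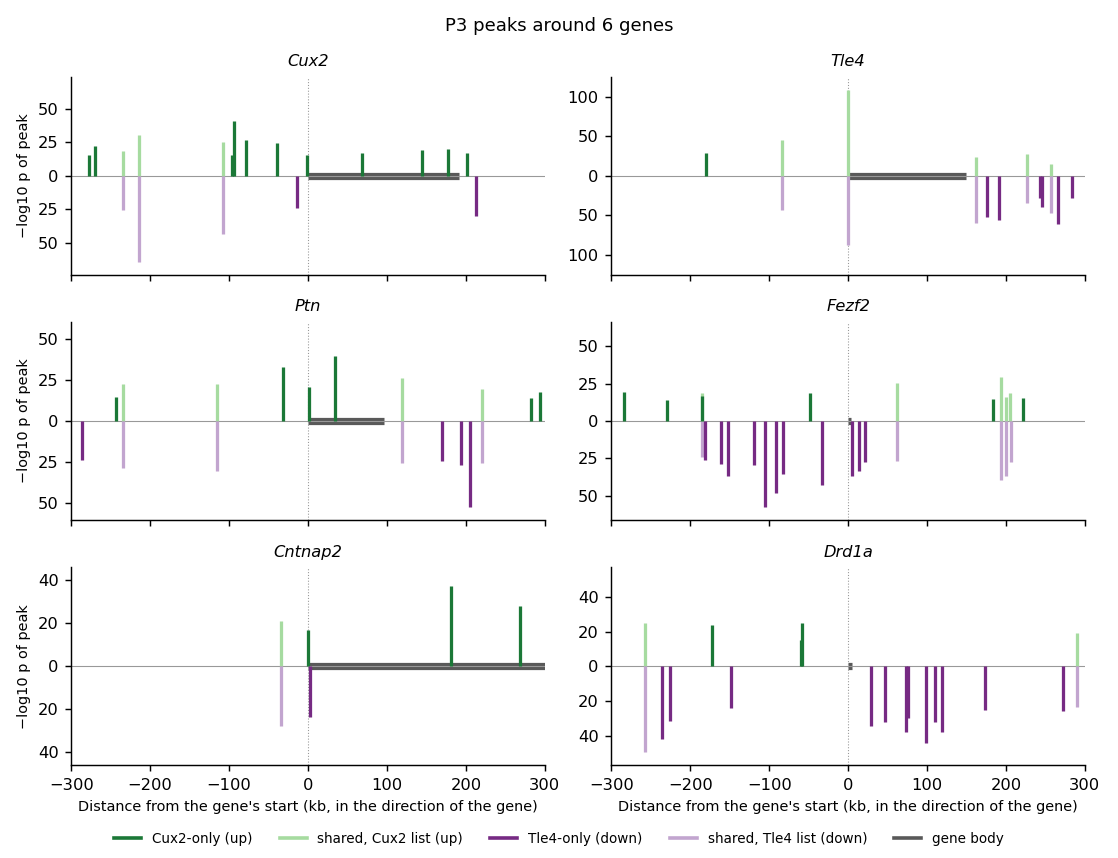
P3 peaks around 6 genes: each line is a peak at its summit, placed by distance (kb) from the gene's start in the direction of the gene and as long as its −log10 p, upwards for Cux2 and downwards for Tle4; dark lines are class-only and pale lines shared peaks, and the grey bar is the gene body. Within 300 kb, Fezf2 has 11 dark purple lines against 6 green, Drd1a 12 against 3, and Ptn has 4 dark purple lines against 6 green, of which the 3 assigned to it lie within 34.1 kb of its start.

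Axon guidance genes, which steer growing axons, went in both directions. Of 41 with a peak, 24 had more Cux2-only and 8 more Tle4-only peaks, and 5 leaned to Cux2 (Sema3a, Sema3e, Epha6, Slit1 and Dscam) and 3 to Tle4 (Sema5a, Sema6d and Plxna2). Over all genes 5490 and 1904 of 13822 had more Cux2-only or Tle4-only peaks, and 4.25% and 0.752% leaned. The sums were 68 Cux2-only and 46 Tle4-only peaks (59.6% against 67.6% over all genes), and 40 and 55 at equal list length. The secreted semaphorins Sema3a and Sema3e had 3 and 0 each, and the guidance ligand Slit1 had 5 and 1. The transmembrane semaphorin Sema5a had 3 Cux2-only and 6 Tle4-only peaks, and Plxna2, a plexin receptor, 2 and 5. Of the layer 5 genes, 1 of 6 leaned to Tle4, and it was Fezf2, which stands in both lists.

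At promoters, 8395 protein-coding genes had a P3 peak in both lists, 1340 in the Cux2 list alone (13.1% of 10233 genes with a promoter peak) and 498 in the Tle4 list alone (4.87%). The callosal list had 5 genes in the Cux2 list alone (Lhx2, Inhba, Pou3f2, Limch1 and Ptn), 1 in the Tle4 list alone (Unc5d) and 5 in both. The corticothalamic list had 2 in the Cux2 list alone (Nr4a2 and Bcl11b), 2 in the Tle4 list alone (Tbr1 and Rprm) and 5 in both. Over the ages Rprm went the other way, as given above.

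Of the marker lists of cells other than projection neurons, the interneuron list stood farthest from the 67.6% Cux2-only share of all genes. The layer 5 list of projection neurons stood farther still, at 47.6% (10 Cux2-only and 11 Tle4-only peaks). Of 20 interneuron genes, 14 had a peak, 10 of them had more Cux2-only and 1 (Prox1) more Tle4-only peaks, and the sums were 20 Cux2-only and 4 Tle4-only peaks (83.3% against 67.6% over all genes; 16 and 5 at equal list length). Dlx6, Npy and Maf leaned to Cux2, and 2 of the 20 Cux2-only peaks were steady, against 2281 of 10863 over all genes. A promoter peak was in the Cux2 list alone for 6 genes (among them Dlx5, Dlx6, Lhx6 and Maf), in the Tle4 list alone for 0 and in both for 2. Over all 13822 genes with a peak, 5490 had more Cux2-only and 1904 more Tle4-only peaks, and 4.25% leaned to Cux2. Of 10233 genes with a promoter peak, 13.1% had it in the Cux2 list alone and 4.87% in the Tle4 list alone. Slc32a1 and Gad2, which define GABAergic neurons, had no assigned peak, and Gad1 had 1 shared peak. The part of interneurons in the Cux2-only set was not tested. Of 9 astrocyte genes 1 leaned to Cux2 (Gja1), and Gfap and Sox9 had a promoter peak in the Cux2 list alone, while 0 of 9 oligodendrocyte, 7 microglial and 6 endothelial genes leaned or had a promoter peak at P3. Of 8 progenitor genes, Sox2 leaned to Cux2 with 4 and 0, and Sox2 and Mki67 had a promoter peak in the Cux2 list alone. The part of these cells in the result was not tested either. Of 11 pan-neuronal genes, Rbfox3 (4 and 0) and Bhlhe22 (3 and 0) leaned to Cux2, against 4.25% of all genes, and 0 to Tle4. At equal list length they had 2 and 0 and 1 and 0, below the 3 that a lean needs, and the list summed to 5 and 7. The Cux2-only share of the summed peaks was 71.4% for astrocyte (4 and 6 peaks at equal list length), 72.7% for progenitor, 66.7% for each of the oligodendrocyte, microglial and endothelial and 63.2% for pan-neuronal genes.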

How the data were processed

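The authors mapped reads to NCBI37 (mm9) by Bowtie2, took out duplicates using Picard, ran MACS2 on the pooled replicates of a group and filtered peaks by IDR, which keeps those that recur between replicates (tools also named in the submitters' processing notes). The deposited lists give, per peak, positions, the summit (unit other), a fold enrichment (ratio), −log10 p and −log10 q values and a score. Positions, summits, fold and −log10 p were used, and the score and q were not. No reads or counts per replicate were analysed. Peaks off chromosomes 1 to 19 and X were left out (7 Cux2, 6 Tle4), and 1 Tle4 P3 peak passed its chromosome's end. TSSs and genes came from GENCODE vM1 on NCBIM37, the build of the files. Scripts used Python 3.11.15, pandas 2.3.3, numpy 2.4.6, scipy 1.17.1 and pysam 0.24.0 and were tested on simulated data. The members and gene lists were chosen with earlier results of these data known. Named genes were the 12 with the largest difference in class-only peaks per class, and list genes that leaned; further list genes (such as Tbr1, Pou3f2 and Lpl), Ptn and Fezf2 as full examples were picked after their values were seen. Alternatives covered list length, list end, peak width, overlap, TSS distance, gene assignment, window size and leaving out each age. Some list genes are not reported by name here.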

Additional observations from a re-analysis of the deposited data

How the results depend on the processing

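No paired analysis was possible because each group's replicates were merged into 1 deposited list, so there are no values per replicate. Depth is unknown, so list length cannot be told apart from depth. Lists of equal length must give nearly equal class-only counts, since shared peaks mostly form single pairs. The log2 ratio of Cux2-only to Tle4-only peaks was 0.86 and turned to −0.0125 at equal list length (9547 Cux2-only peaks), −1.49 at a common −log10 p (4341), −0.00606 among the 10000 strongest peaks (3802 Cux2-only, 3818 Tle4-only, 6198 and 6182 shared) and −0.0298 for these against the whole other list (2015, 2057, 7985 and 7943; added after seeing the data). With 500 bp windows, an overlap of 50% of the narrower peak or partners within 1 kb, no count moved by over 1.5 times. Genes leaning to Cux2 numbered 201, 23, 29 and 12 under those 4 settings and 356 with TSSs within 50 kb, and genes leaning to Tle4 numbered 223, 476, 35, 8 and 46. The promoter difference of 5.91 points over the ages turned to −5.12 at equal length, −2.20 at a common −log10 p and −1.22 among the 10000 strongest, where the P21 Tle4 list has 6538 peaks in all. Leaving out each age gave 4.51 to 9.84 points for promoters, −162.1 to −111.5 bp for width, −0.200 to 0.400 points for GC, 33.7 to 40.5 points for the presence of Cux2-only and 7.86 (without P1) to 27.5 points for that of Tle4-only peaks. Of the motifs, only RFX turned when an age was left out (−0.231 without P7 to 0.494 without P3), and with 5 ages no motif could reach 0.05; at equal length 4 of the 8 same-sign motifs lost the smallest p (homeobox 0.09375, CAGCTG 0.0625, CRE 0.656, ETS 0.1875), among the 10000 strongest 3 did (homeobox 0.09375, CRE 0.375, ETS 0.125), and at a common −log10 p CRE did (0.125; exact permutation tests). Both equal length and a common −log10 p shorten only the Cux2 list at P3, so neither can lower a Tle4-only count there. Of 46 named genes, 38 kept their lean at equal length and 0 reversed, while at a common −log10 p 22 kept it and 11 reversed: Dlg2 (−5), Pde4d (−7), Fam190a (−1), Rims2 (−1), Cux2 (−1), Limch1 (−2), Cdh18 (−2), Npy (−1), Sema3a (−2), Epha6 (−1) and Slit1 (−1). Among the 10000 strongest, Dlg2 (−3), Pde4d (−2), Limch1 (−2), Cdh18 (−1) and Sema6d (1) reversed, and against the whole other list Pde4d (−2) and Cdh18 (−1). The causes were not tested.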

Other observations

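The share of class-only peaks varied among chromosomes, in both lists. It was lowest on chromosome 7, where 44.0% of Cux2 and 26.6% of Tle4 peaks had no partner, with 45.1% and 29.6% on chromosome 17 and 45.7% and 29.6% on chromosome 11. The highest Cux2 share was 56.5% on chromosome 12 and the highest Tle4 share 42.9% on chromosome 14. On chromosome X the shares were 50.1% and 33.5%.

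Tle4-only peaks of P3 were seen in the other class more often over the time course. At least 1 Cux2 list of another age held 47.1% of them, and at least 1 Tle4 list of another age held 18.03% of the Cux2-only peaks, while the 5 Cux2 lists are each longer than the Tle4 list of the same age. Of the steady peaks, 538 of Tle4 appeared in a P21 or P48 Cux2 list, against 188 of Cux2 in a P21 or P48 Tle4 list. Only 27 Tle4-only and 409 Cux2-only peaks were found at P3 and then at P21 or P48 in their own class, with no peak in between at P7 or before at E18.5 and P1 and none in the other class.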
